A study of Mus musculus with 2 samples.

Results

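T and NK cells made up 210 of the 25418 cells of a liver macrophage preparation, 35 of 11572 in the saline library and 175 of 13846 in the Ter119 library. A cell counted as a member when it carried at least 3 transcripts, each read once by its unique molecular identifier (UMI), over Cd3e, Cd3d, Cd3g, Trbc2, Nkg7, Ncr1 and Gzma, with at least 2 of these genes detected and 0 UMIs over the B cell genes Cd79a and Ms4a1 and the plasmacytoid dendritic gene Siglech. The members were thus chosen by the UMI counts of these 7 genes, so the levels of these genes are a description and were not tested. Both mice were C57BL/6J animals aged 7 to 10 weeks. One received saline, and the other received Ter119, an antibody to a red cell surface antigen, as a first dose of 35 ug under the skin and then 10 ug on each of 10 days. The labels give the interval from final injection to liver removal as 24 with no unit. Non-parenchymal cells were enriched on beads for F4/80 and CD11b, which select macrophages and other myeloid cells. Each group is 1 mouse and 1 library, both mice were stained with hashtag antibodies and pooled, and no difference below has a replicate check or a test. All intervals are exact 95% intervals that cover counting error only.

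T cells recognise antigen through a receptor whose alpha and beta chains (Trac, Trbc1 and Trbc2) signal through the CD3 chains (Cd3e, Cd3d and Cd3g). CD8 T cells carry the coreceptor chains Cd8a and Cd8b1 and, once activated, secrete chemokines and interferon gamma and kill with perforin and granzymes, while long exposure to antigen goes with inhibitory receptors such as PD-1. NK cells and the related type 1 innate lymphoid cells (ILC1) kill without an antigen receptor, carry Ncr1 (NKp46) and receptors of the Klr family, and are both plentiful in the mouse liver.

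Members took 0.302% of the saline cells (0.211 to 0.420) and 1.26% of the Ter119 cells (1.08 to 1.46). The preparation was selected for myeloid cells and pooled at equal cell number, so both shares are shares of what the beads kept. The median member held 5191 UMIs in saline and 2091 in Ter119, against 6247 and 2817 in the other cells. With every cell thinned to 1000 UMIs outside the hemoglobin genes, the rule found 0.242% of saline and 1.01% of Ter119 cells, so the saline share stayed below the Ter119 share at matched depth. A median member carried 31 UMIs over the 7 genes in saline (3 to 225) and 15 in Ter119 (3 to 70). At the threshold of 3 UMIs stood 1 saline and 12 Ter119 members. Just outside were 5 saline and 47 Ter119 cells with 2 such UMIs, 2 and 11 cells with 3 or more UMIs of a single gene, and 4 and 3 cells left out only by an exclusion UMI. The libraries share 133 barcode sequences, and 0 members lie on them.

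The labelled cell type of the preparation is macrophage, and the members' own genes set them apart from it. Trac, the alpha chain constant region, which the rule did not use, stood at 271 CPM (UMIs of the gene per 1000000 UMIs outside hemoglobin genes) in saline members and at 0.328 in the other saline cells. In Ter119 it stood at 538 CPM in members and 0.724 in the other cells. Of the T cell receptor and signal genes listed, 14 of the 14 compared were at least 2-fold above the other cells in both libraries. Over all genes compared, 15.4% in saline and 11.2% in Ter119 were at least 2-fold above the other cells, a contrast that the choice of members used. Kupffer cell markers were nonetheless present in members, at 7287 CPM summed over 10 genes in saline and 7391 in Ter119, 23.4% and 40.8% of the level in the other cells. All 10 of these markers were lower in members than in the other cells of both libraries. Neutrophil markers summed to 31.0 CPM in saline members, with Retnlg, Cxcr2 and Ly6g at 0, and to 4242 CPM in Ter119 members, with Ly6g at 0, against 1199 and 10616 CPM in the other cells. By cell, the median Ter119 member stood at 214 CPM and the highest at 115298 CPM, against a median of 135 CPM in the other Ter119 cells. Endothelial markers summed to 69.7 and 290 CPM in members and to 933 and 998 CPM in the other cells. B and plasma cell markers were about level, at 147 and 102 CPM in members and 134 and 103 CPM in the other cells. The plasma cell marker Jchain was at 0 in both member groups. Basophil and mast cell markers summed to 3.87 and 4.96 CPM in members and 2.54 and 6.96 CPM in the other cells. Of these, Mcpt8, Cpa3 and Fcer1a were at 0 in both member groups. Dendritic markers summed to 3512 CPM in saline members and 1802 CPM in Ter119 members, above the other cells' 2419 and 890. Of the members, 5 in saline and 9 in Ter119 carried 3 or more UMIs over the dendritic genes Cd209a, Flt3, Clec10a, Xcr1 and Clec9a. The 5 saline cells, with a median of 13324 UMIs, held 582 of the 820 saline member UMIs of H2-Aa, an MHC class II gene. The 9 Ter119 cells, with a median of 3359 UMIs, held 161 of 636, so leaving such cells out removes less of this signal in Ter119. Doublets were not called. The part of these other cell types in the results below was not tested beyond the values given with and without such cells.

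**Figure D1:**
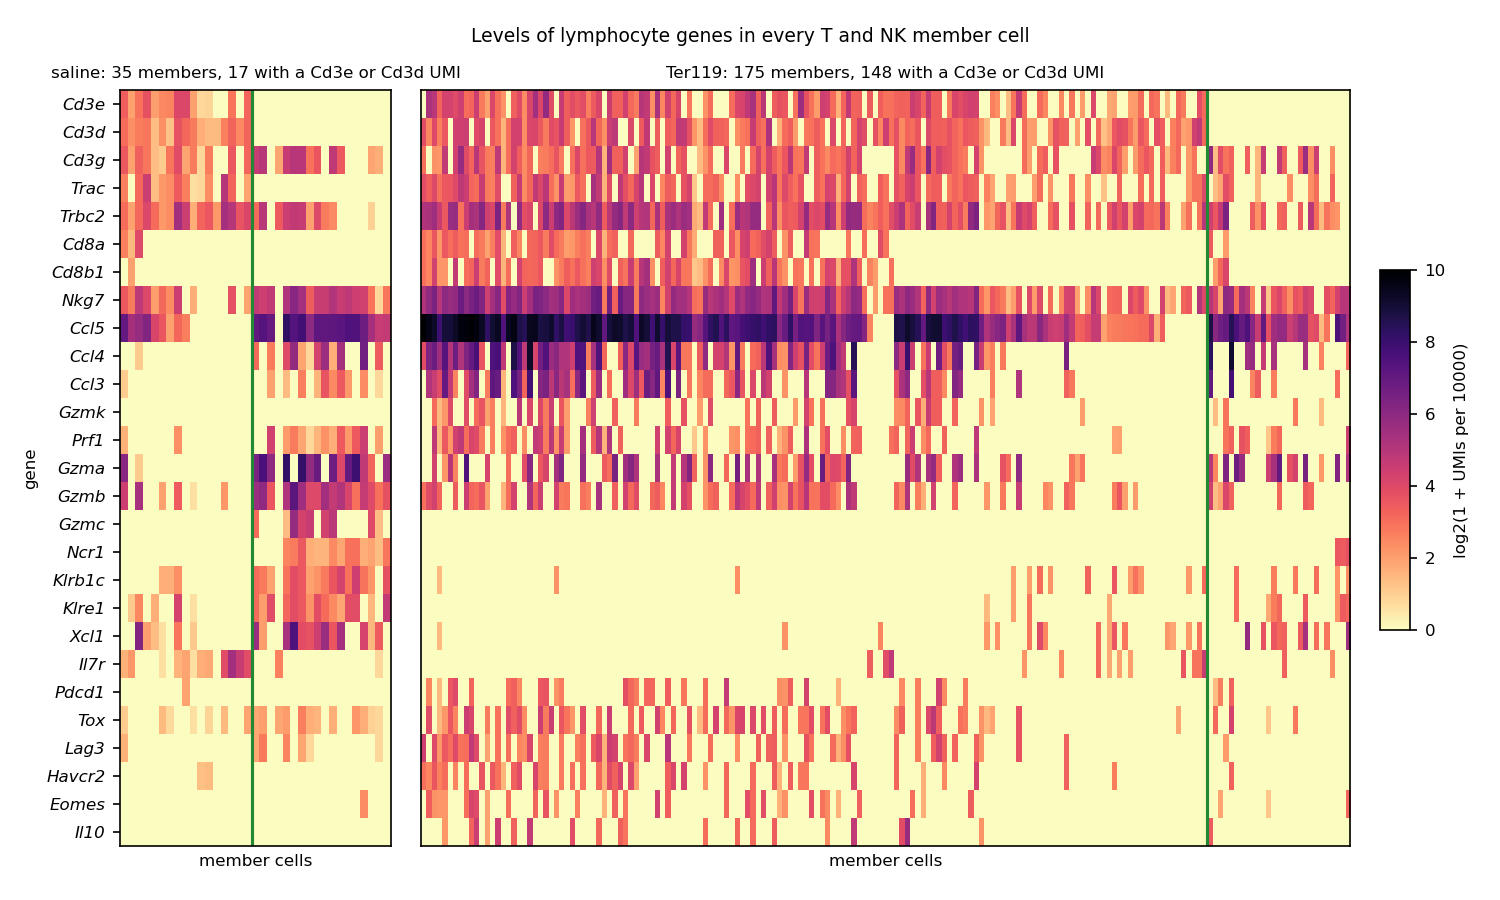
Heat map of 27 genes (rows) in every member cell (columns) of the saline and Ter119 libraries, coloured by log2(1 + UMIs per 10000 UMIs outside hemoglobin genes). The green line parts the 17 saline and 148 Ter119 members with a Cd3e or Cd3d UMI, on the left, from the other members. All saline Ncr1 and Gzmc UMIs lie right of the line, in 14 and 9 of 18 members. Cd8a, Cd8b1, Ccl3 and Ccl4 UMIs are frequent at the left of the Ter119 panel.

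The genes of the member rule are given first, as a description. A UMI of Ncr1, the NK receptor NKp46, was found in 14 of 35 saline members (40.0%, 23.9 to 57.9) and in 3 of 175 Ter119 members (1.71%, 0.355 to 4.93). Its summed level in CPM was 112 in saline against 17.4 in Ter119. Cd3e, a signal chain of the T cell receptor, had a UMI in 40.0% of saline and 65.1% of Ter119 members, and Cd3d in 48.6% and 69.1%. Cd3g was alike in both, in 74.3% and 69.1% of members. Gzma, the granzyme A gene, was found in 45.7% and 41.7% of members, although its level was 3063 against 1185 CPM. Nkg7, a gene of cytotoxic granules, was found in 80.0% and 91.4% of members. A CD8 chain UMI (Cd8a or Cd8b1) marked 3 of 35 saline members (8.57%, 1.80 to 23.1) and 93 of 175 Ter119 members (53.1%, 45.5 to 60.7). In the other cells at or above the median Kupffer marker share, which should lack CD8 and so show the level of free RNA, Cd8a was found in 0.0347% of saline and 0.0731% of Ter119 cells and Cd8b1 in 0.121% and 0.161%. The median depth of those cells was 8309 and 3764 UMIs. A Cd4 UMI was found in 4 of 35 saline and 5 of 175 Ter119 members, which does not limit the share of cells that express it, and Foxp3, the regulator of regulatory T cells, had 7 UMIs in saline and 1 in Ter119.

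Because Cd3g transcripts occurred in many Ncr1 cells, the members were also parted by Cd3e and Cd3d, a split chosen after their values were seen. A Cd3e or Cd3d UMI was present in 17 of 35 saline members (48.6%, 31.4 to 66.0) and 148 of 175 Ter119 members (84.6%, 78.4 to 89.6). None of the 17 and none of the 148 carried an Ncr1 UMI. Of the other 18 saline members, 14 had Ncr1, 16 had Klrb1c (NK1.1), 13 had Xcl1, 9 had Gzmc, 12 had Cd3g and 0 had Trac. The other 27 Ter119 members were mixed, with Ncr1 in 3, Klrb1c in 6, Xcl1 in 10, Trac in 9 and a CD8 chain in 4. In saline, the 17 members with Cd3e or Cd3d included 14 with Trac, 12 with Il7r, 3 with a CD8 chain, 2 with Trdc and 2 with Foxp3. The 5 saline members with dendritic UMIs are all among those 17 (29.4%), while 8 such Ter119 members are among the 148 (5.41%). For part of the genes below, values within the cells that had a Cd3e or Cd3d UMI are given beside those over all members. The other genes are given over all members only, whose mix of cells differed between the libraries.

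Outside the hemoglobin genes, members held 258260 UMIs in saline and 403344 in Ter119, so 1 UMI is worth 3.87 CPM in saline and 2.48 CPM in Ter119. Genes were compared where they reached 50 CPM in 1 library and 10 UMIs over both. Of 3972 genes compared, 270 (6.8%) stood 2-fold or more higher in Ter119 members and 441 (11.1%) 2-fold or more lower, around a median log2 ratio of Ter119 over saline of -0.11. Higher genes were 38.0% of the genes past 2-fold, and this share was 57.5% with TMM factors, 59.6% with median-of-ratios factors and 23.5% with hemoglobin kept in the total, which put the median of all genes at 0.09, 0.11 and -0.30. In the cells with a Cd3e or Cd3d UMI, 407 of 4030 genes (10.1%) were higher and 472 (11.7%) lower, with a median of -0.08. The counts of higher and lower genes in each list below stand against these shares.

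The chemokines stood out by level. Ccl5, which draws T cells, monocytes and eosinophils, was the most abundant chemokine of the members, at 5479 CPM in saline (1415 UMIs in 26 of 35 cells) and 17444 CPM in Ter119 (7036 UMIs in 162 of 175 cells). Its ratio of Ter119 over saline was 3.18 (3.01 to 3.37), and in the cells with a Cd3e or Cd3d UMI, at 1988 and 19547 CPM, it was 9.83 (8.79 to 11.0). The median member carried 41.3 Ccl5 UMIs per 10000 in saline and 155 in Ter119, and the ranges overlapped, from 0 to 302 and from 0 to 1359. In the cells without Cd3e or Cd3d, Ccl5 was not higher, with a ratio of 0.586. Ccl3 (MIP-1 alpha), a chemokine of activated T cells and macrophages, stood at 85.2 CPM in saline (22 UMIs in 11 cells) and at 1532 CPM in Ter119 (618 UMIs in 78 cells), a ratio of 18.0 (11.8 to 28.9). In cells with Cd3e or Cd3d it had 1 UMI in saline and 572 in Ter119, a ratio of 271 (48.4 to 10710). Ccl4 (MIP-1 beta), a related chemokine, had 158 UMIs in 13 saline members and 1327 in 100 Ter119 members, a ratio of 5.38 (4.56 to 6.38), and like Lag3 and Tox below it was chosen for naming after its values were seen. No single cell carried these chemokines in Ter119, where the top 5 cells held 11.4% of Ccl5, 21.4% of Ccl3 and 21.0% of Ccl4 UMIs. In saline the top 5 cells held 72.7% of Ccl3 and 82.3% of Ccl4 UMIs. Ccl3 and Ccl5 lie on chromosome 11 of GRCm38, at 83647844-83649355 and 83525778-83530518, both on the minus strand.

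Other secreted factors of the list moved in both directions. Ifng, interferon gamma, had 7 UMIs in 4 saline members and 49 in 35 Ter119 members, at 27.1 and 121 CPM, a ratio of 4.48 (2.02 to 11.7). Il10, an anti-inflammatory cytokine, had 0 UMIs in saline and 41 in 21 Ter119 members, at least 8.75-fold higher, and 40 of the 41 lay in cells with a Cd3e or Cd3d UMI. The other cells of the saline library held Il10 at 10.8 CPM and those of Ter119 at 1.12 CPM, so the members and the rest differed in opposite directions. Xcl1 (lymphotactin), which draws cross-presenting dendritic cells, went the other way, from 1231 CPM in saline (318 UMIs in 19 of 35 cells) to 131 CPM in Ter119 (53 UMIs in 26 of 175 cells), 9.37-fold lower. Among cells with Cd3e or Cd3d it stood at 469 and 71.0 CPM, but 1 saline cell held 66 of the 75 Xcl1 UMIs there, and without it Xcl1 stood at 59.6 and 71.0 CPM, a ratio of 1.19 (0.535 to 2.91). Ltb, lymphotoxin beta, stood at 488 and 179 CPM, 2.73-fold lower. Of 8 cytokine and chemokine genes compared, 5 passed 2-fold upward and 2 downward, and the median log2 ratio was 1.92.

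The promoters of Ccl3, Pdcd1 and Gzmk, among the genes with the largest ratios, are shown with that of Xcl1, which moved the other way. They are the 250 bases before the transcription start on GRCm38.p6 as given by RefSeq, 5′ to 3′ on the gene's strand, which is the minus strand for all 4. Capitals mark the NFAT core GGAAA, the RUNX core TGTGGT and the T-box core GGTGTGA on either strand, and the AP-1 motif TGANTCA was searched too.
Ccl3, chr11:83649379-83649628: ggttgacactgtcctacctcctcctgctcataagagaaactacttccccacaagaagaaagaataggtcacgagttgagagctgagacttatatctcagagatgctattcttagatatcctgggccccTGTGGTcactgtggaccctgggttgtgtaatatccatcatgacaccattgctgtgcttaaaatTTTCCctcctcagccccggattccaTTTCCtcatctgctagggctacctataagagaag
Pdcd1, chr1:94052554-94052803: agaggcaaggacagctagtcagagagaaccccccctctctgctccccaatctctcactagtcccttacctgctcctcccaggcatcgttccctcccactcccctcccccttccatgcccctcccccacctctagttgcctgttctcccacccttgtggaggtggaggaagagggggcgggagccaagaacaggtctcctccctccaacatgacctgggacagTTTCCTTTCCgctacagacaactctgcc
Gzmk, chr13:113180966-113181215: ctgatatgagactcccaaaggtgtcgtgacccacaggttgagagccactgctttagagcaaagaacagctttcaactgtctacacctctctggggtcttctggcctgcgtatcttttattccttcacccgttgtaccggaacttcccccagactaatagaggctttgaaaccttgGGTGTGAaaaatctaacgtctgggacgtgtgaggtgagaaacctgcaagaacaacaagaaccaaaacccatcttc
Xcl1, chr1:164935523-164935772: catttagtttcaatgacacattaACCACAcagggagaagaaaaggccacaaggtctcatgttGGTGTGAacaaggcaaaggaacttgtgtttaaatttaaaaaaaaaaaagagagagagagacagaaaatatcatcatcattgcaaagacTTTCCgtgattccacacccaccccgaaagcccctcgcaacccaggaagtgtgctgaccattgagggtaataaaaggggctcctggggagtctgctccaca
The NFAT core was found 2 times in the Ccl3 promoter, 2 times in that of Pdcd1 and 1 time in that of Xcl1, and 55.6% of all 32851 promoters of this length hold it. The RUNX core occurred in the Ccl3 and Xcl1 windows and in 14.0% of all promoters. The T-box core occurred in the Gzmk and Xcl1 windows and in 3.33% of all promoters. The AP-1 motif was found in none of the 4 windows and in 6.75% of all promoters. These matches describe letters in a window and say nothing of binding.

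Among genes of the killing machinery, the granzymes differed one from another. Gzmk, granzyme K, had 0 UMIs in saline and 80 in 50 of 175 Ter119 members (198 CPM), at least 17.1-fold higher, and 75 of the 80 lay in cells with Cd3e or Cd3d. With every member thinned to 1000 UMIs, 16.0% of Ter119 and 0% of saline members kept a Gzmk UMI, against 0.0300% and 0% of the cells rich in Kupffer markers. Gzmc, granzyme C, was the reverse, with 111 UMIs in 9 saline members (430 CPM) and 0 in Ter119, at least 57.8-fold lower. All 111 lay in cells without Cd3e or Cd3d. Gzmb, granzyme B, stood at 1344 and 434 CPM, 3.10-fold lower over all members, but at 431 and 476 CPM, a ratio of 1.10 (0.828 to 1.49), in cells with Cd3e or Cd3d. There, 2 saline cells held 56 of the 69 Gzmb UMIs, and without the highest one the ratio was 2.18 (1.49 to 3.28). Prf1, perforin, stood at 170 and 322 CPM over all members, a ratio of 1.89 (1.33 to 2.73). In cells with Cd3e or Cd3d it had 4 UMIs in saline and 116 in Ter119, a ratio of 13.7 (5.22 to 51.2). Ctsw, cathepsin W of cytotoxic cells, was 3.33-fold lower over all members and 1.71-fold lower in cells with Cd3e or Cd3d. Of 11 cytotoxic granule genes compared, 1 was higher and 3 lower, with a median of -0.03, a sign that turned with TMM factors (0.13). In the cells with Cd3e or Cd3d, 4 of 10 were higher and 0 lower, with a median of 0.63.

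Both CD8 coreceptor genes were higher in Ter119. Cd8b1, the CD8 beta chain, had 5 UMIs in 1 saline member and 147 in 76 Ter119 members, at 19.4 and 364 CPM, a ratio of 18.8 (7.89 to 58.8). Cd8a, the alpha chain, had 21 UMIs in 3 saline members and 93 in 62 Ter119 members, at 81.3 and 231 CPM, a ratio of 2.84 (1.75 to 4.80). It was 2.05 (1.27 to 3.47) in cells with Cd3e or Cd3d and 1.39 in those without dendritic UMIs. Both genes lie side by side on chromosome 6, at 71322788-71337494 for Cd8b1 and 71373427-71379173 for Cd8a. Trac had 70 UMIs in saline and 217 in Ter119, a ratio of 1.98 (1.51 to 2.64). It was 1.38 in cells with Cd3e or Cd3d and 0.926 in those without dendritic UMIs. Trbc1, a beta chain constant region, did not differ beyond counting error, at 341 and 290 CPM with a ratio of 0.851 (0.640 to 1.14). Themis, a signal protein needed for T cell selection, had 2 UMIs in saline and 28 in Ter119, a ratio of 8.96 (2.26 to 77.7). Of 14 T cell receptor and signal genes compared, 3 were higher (Themis, Cd2 and Cd28) and 1 lower (Skap1), with a median of 0.28. After thinning to 1000 UMIs, Themis had a ratio of 1.04, and the direction of Cd2 and Cd28 turned. Sh2d1a, which encodes the signal adaptor SAP and was in no list, stood at 65.8 and 253 CPM, a ratio of 3.84 (2.29 to 6.85).

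Among checkpoint genes, Pdcd1, Havcr2, Lag3 and Tox were higher in the Ter119 members. Pdcd1, which encodes PD-1, had 1 UMI in 1 saline member and 51 UMIs in 34 of 175 Ter119 members, at 3.87 and 126 CPM, a ratio of 32.7 (5.60 to 1315). With members thinned to 1000 UMIs, 15.4% of Ter119 members and 2.86% of saline members had a Pdcd1 UMI, against 0.0150% and 0% of Kupffer-rich cells. Havcr2, which encodes TIM-3, had 4 and 66 UMIs, in 2 and 45 cells, a ratio of 10.6 (3.94 to 39.9). Lag3, an inhibitory receptor for MHC class II, had 11 and 83 UMIs, in 7 and 55 cells, a ratio of 4.83 (2.57 to 10.1). Tox, a transcription factor of chronically stimulated T cells, had 25 UMIs in 19 of 35 saline members and 109 in 64 of 175 Ter119 members, a ratio of 2.79 (1.79 to 4.50). Tox was seen in a larger share of saline than of Ter119 members, and the saline members were deeper. Of the 4 genes Pdcd1, Tox, Lag3 and Havcr2, 3 or more were detected together in 0 of 35 saline members, and 3 in 22 and all 4 in 8 of 175 Ter119 members. The transcription factor Eomes, which acts in both CD8 T cells and NK cells, had 2 UMIs in saline and 45 in Ter119, a ratio of 14.4 (3.76 to 123), and in cells with Cd3e or Cd3d 0 and 41. Prdm1, which encodes Blimp-1 of effector lymphocytes, stood at 38.7 and 89.3 CPM, a ratio of 2.31 (1.12 to 5.21), and 1.87 without members that carried dendritic UMIs. Nr4a2, a nuclear receptor induced by antigen receptor signals, had 0 UMIs in saline and 49 in 32 Ter119 members, at least 10.5-fold higher. Of 9 checkpoint and costimulation genes compared, 4 were higher and 3 lower (Cd160, Cd244 and Cd226), with a median of 0.33, and in cells with Cd3e or Cd3d 5 of 7 were higher and 1 lower, with a median of 2.39.

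**Figure D2:**
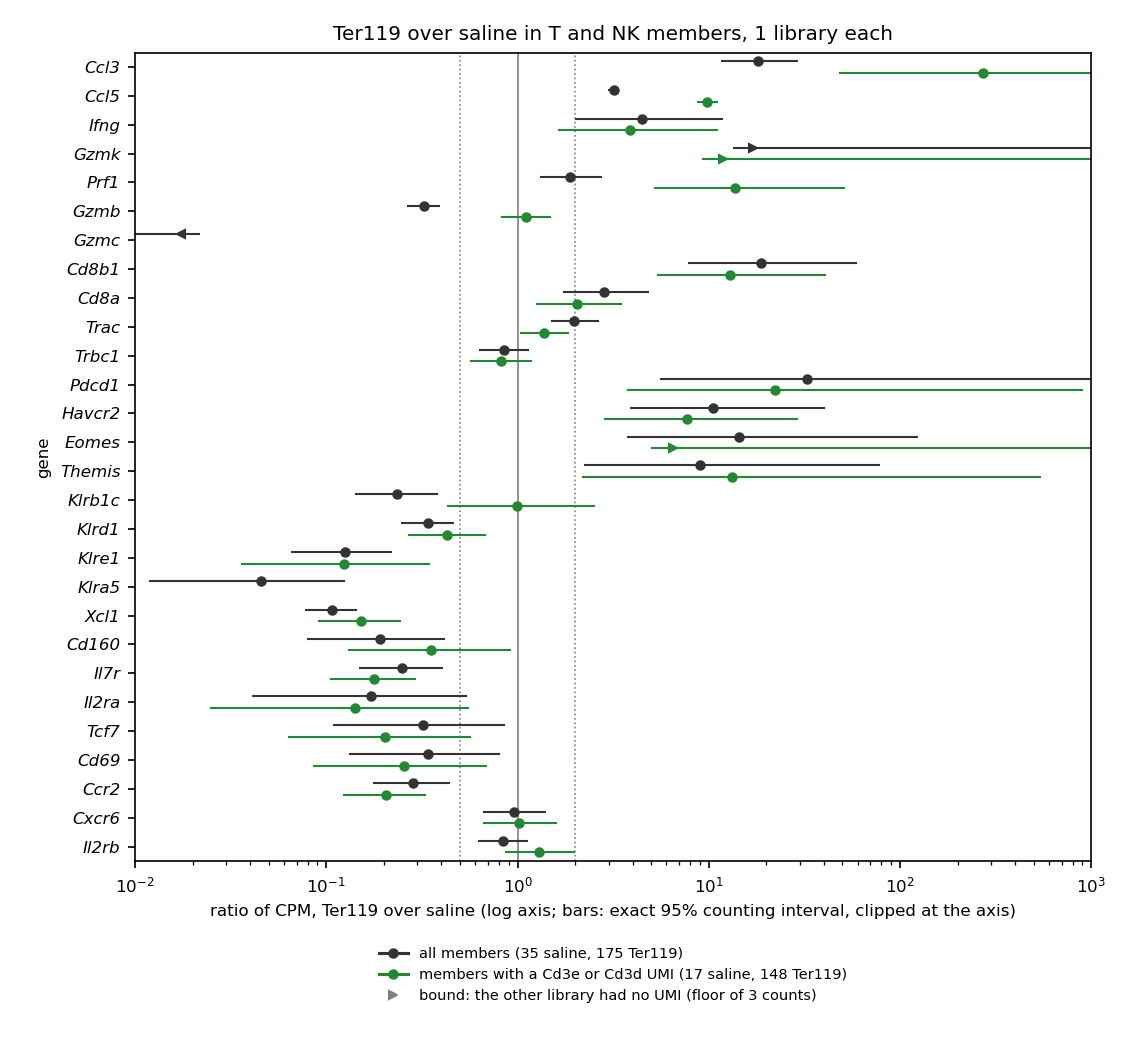
Ratio of CPM in Ter119 over saline members for 28 genes on a log axis, over all members (black) and over members with a Cd3e or Cd3d UMI (green), with exact 95% counting intervals. Triangles are bounds against a library with no UMI, and dotted lines mark 2-fold. Gzmb lies at 0.323 over all members and at 1.10 in green, while Klre1 and Il7r lie left of the 0.5 line in both. The green Xcl1 and Gzmb points each rest on few saline cells, and without the highest one they would lie at 1.19 and 2.18.

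NK receptors and ILC1 genes were lower. Klrb1c, the NK1.1 antigen, stood at 263 CPM in saline (68 UMIs in 19 of 35 cells) and 62.0 CPM in Ter119 (25 UMIs in 20 of 175), 4.25-fold lower. In cells with Cd3e or Cd3d it stood at 56.3 and 56.2 CPM, from 9 and 19 UMIs, with a ratio of 1.60 (0.578 to 5.48) without the saline cell that held 4 of the 9. Klre1, a receptor of NK cells, had 77 UMIs in saline and 15 in Ter119, 8.02-fold lower, and was 8.03-fold lower in cells with Cd3e or Cd3d (19 and 5 UMIs). Klrd1 (CD94) stood at 496 and 169 CPM, 2.94-fold lower. Klra5, a Ly49 receptor, had 56 UMIs in 6 saline members and 4 in 3 Ter119 members, 21.9-fold lower. Reads of the near-identical Ly49 genes can be split among them, so single Ly49 values are uncertain. Cd160, an NK and CD8 T cell receptor for HVEM, stood at 116 and 22.3 CPM, 5.21-fold lower. Of 12 NK cell genes compared, 9 were lower and 1 higher (Eomes), with a median of -2.12, and all 3 Ly49 genes compared were lower, although Klra8 turned to a log2 ratio of 0.34 without its highest saline cell. In cells with Cd3e or Cd3d, 5 of 10 NK cell genes were lower and 1 higher, with a median of -0.74. Il2rb, the interleukin 2 and 15 receptor beta chain of the same list, did not differ beyond counting error, at 337 and 283 CPM with a ratio of 0.839 (0.629 to 1.12).

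Genes of tissue residency and of naive cells were partly lower too. Itga1 (CD49a), an ILC1 and resident T cell integrin, stood at 190 and 49.6 CPM, 3.83-fold lower. In cells with Cd3e or Cd3d, Itga1 was 1.51-fold lower, and 2.99-fold lower in those without dendritic UMIs. Tnfsf10 (TRAIL), a death ligand of liver ILC1, stood at 69.7 and 9.92 CPM, 7.03-fold lower. Cxcr6, the receptor that holds lymphocytes in the liver sinusoids, was level at 201 and 193 CPM with a ratio of 0.960 (0.668 to 1.39). Il7r, the interleukin 7 receptor, had 64 UMIs in 14 of 35 saline members and 25 in 15 of 175 Ter119 members, at 248 and 62.0 CPM, a ratio of 0.250 (0.151 to 0.403). In cells with Cd3e or Cd3d it was 5.60-fold lower (381 and 68.0 CPM), and it stayed at least 2-fold lower under all 17 other settings of cells, scaling and filters tried. Il2ra, the interleukin 2 receptor alpha chain, had 15 and 4 UMIs, 5.86-fold lower, and Cd69 had 17 and 9, 2.95-fold lower. Tcf7, a factor of naive and memory cells, had 14 and 7 UMIs, 3.12-fold lower. Ccr7 and Lef1, of the same naive cells, were under 50 CPM in both libraries. Ccr2, a receptor for monocyte chemokines, was 3.54-fold lower (263 and 74.4 CPM), but 1.37-fold lower without members that carried dendritic UMIs. Of 8 ILC1 and residency genes compared, 5 were lower and 0 higher (median -1.51). Of 6 naive cell genes, 3 were lower and 0 higher (median -1.18), and of 14 cytokine receptor genes 5 were lower and 0 higher (median -0.55).

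Few members carried genes of innate-like T cells. Trdc, the delta chain constant region, had 29 UMIs in 4 of 35 saline members and 10 in 4 of 175 Ter119 members, at 112 and 24.8 CPM, 4.53-fold lower. A single saline cell held 22 of the 29, and without it the ratio was 0.881 (0.303 to 2.73). Of the variable segment genes, Trgv2 of the gamma chain had 8 UMIs in 3 saline and 3 UMIs in 2 Ter119 members. Trav7-4 of the alpha chain had 0 UMIs in saline and 16 in 15 Ter119 members, more UMIs than any other segment detected. No receptor sequence was read here, and sequencing from the 3′ end seldom reaches these segments.

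**Figure D3:**
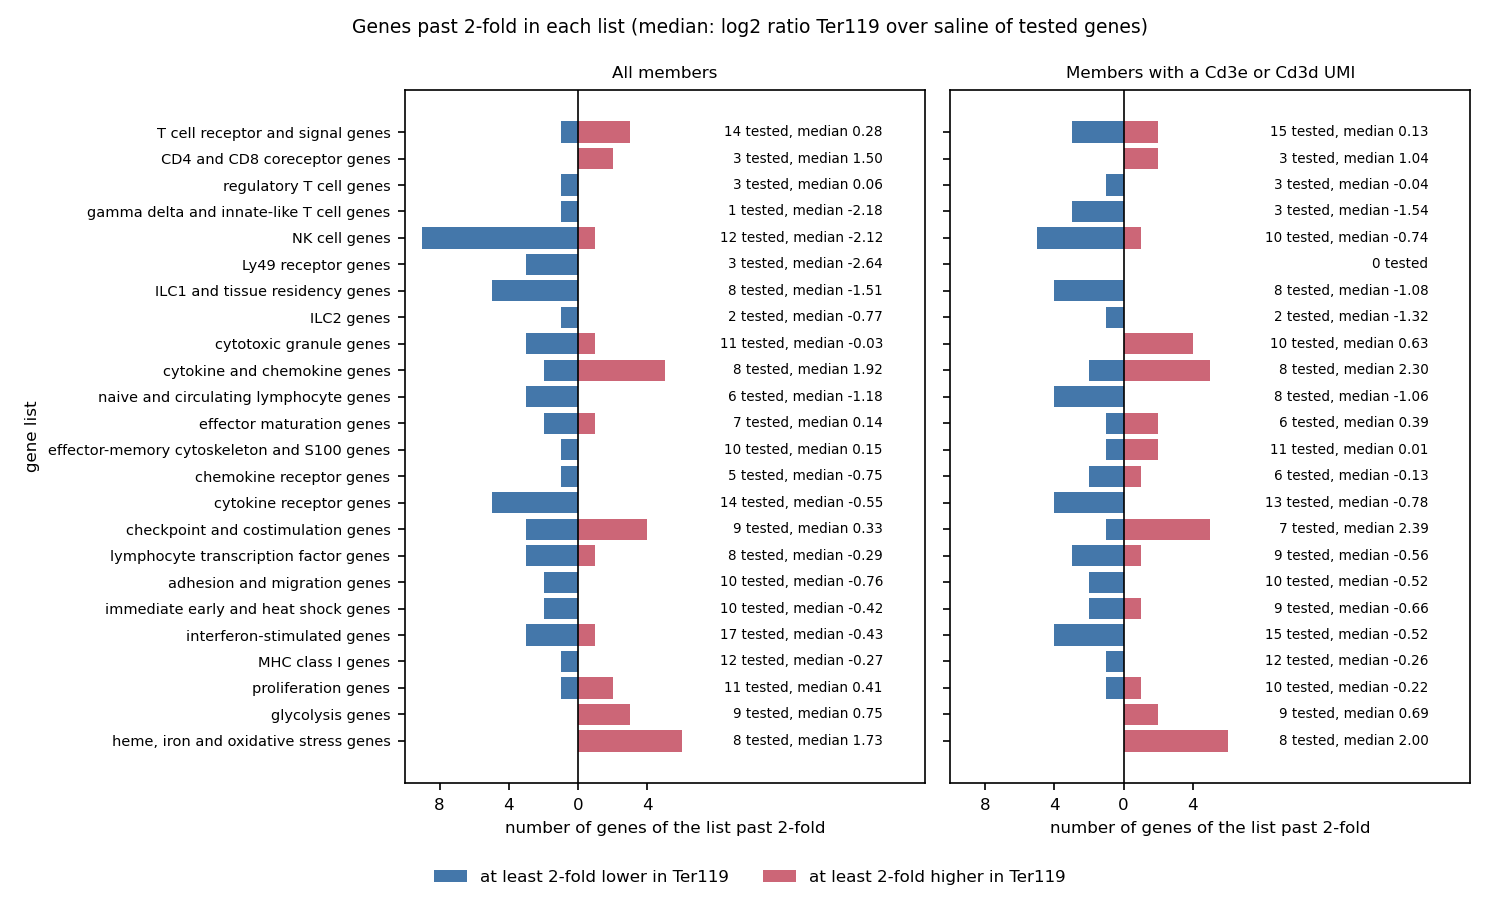
Number of genes of each list at least 2-fold higher (red, right) or lower (blue, left) in Ter119 members, over all members and over those with a Cd3e or Cd3d UMI, with the genes compared and their median log2 ratio. NK cell genes show 9 of 12 lower over all members and 5 of 10 in cells with Cd3e or Cd3d, and heme, iron and oxidative stress genes show 6 of 8 higher in both.

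Within the Ter119 library, the 93 members with a CD8 chain UMI, a split also chosen after values were seen, carried most of the effector transcripts. They were shallower than the other 82 members, with a median of 1751 against 2344 UMIs. Ccl5 stood at 28109 CPM with and 7006 CPM without a CD8 chain UMI, a ratio of 4.01 (3.79 to 4.26). Ccl3 was 6.15-fold higher with one (2657 and 432 CPM), and Ccl4 4.92-fold (5508 and 1119 CPM). Prf1 was 3.72-fold higher (511 and 137 CPM), Gzmb 4.24-fold (707 and 167 CPM) and Gzmk 3.79-fold (316 and 83.4 CPM). Gzma differed less, at 1564 and 814 CPM, a ratio of 1.92 (1.59 to 2.33). Pdcd1 was found in 30.1% of members with a CD8 chain UMI and 7.32% of those without, Havcr2 in 40.9% and 8.54%, Lag3 in 48.4% and 12.2%, and Tox in 51.6% and 19.5%. Eomes was found in 32.3% and 6.10%, and Tnfrsf18 (GITR), a costimulatory receptor, in 29.0% and 7.32%. Of the 21 cells with an Il10 UMI, 18 had a CD8 chain UMI, 20 had Ccl4, 16 had Gzmb and 10 had Ifng. Of the 34 cells with Pdcd1, 28 had a CD8 chain UMI. NK and innate receptors lay on the other side. Klrk1 (NKG2D) had 1 UMI with and 38 without a CD8 chain UMI, a ratio of 0.0269 (0.000663 to 0.159), and Klre1 had 0 and 15, at least 4.89-fold lower. Xcl1 had 3 and 50 UMIs, a ratio of 0.0613 (0.0122 to 0.190), and the surface antigen gene Ly6c2 3 and 46, a ratio of 0.0666 (0.0133 to 0.207). All 7 Ncr1 UMIs and all 6 Cd4 UMIs of the Ter119 members lay in cells without a CD8 chain UMI. The heme gene Hmox1 was level between them, at 2240 and 2365 CPM.

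**Figure D4:**
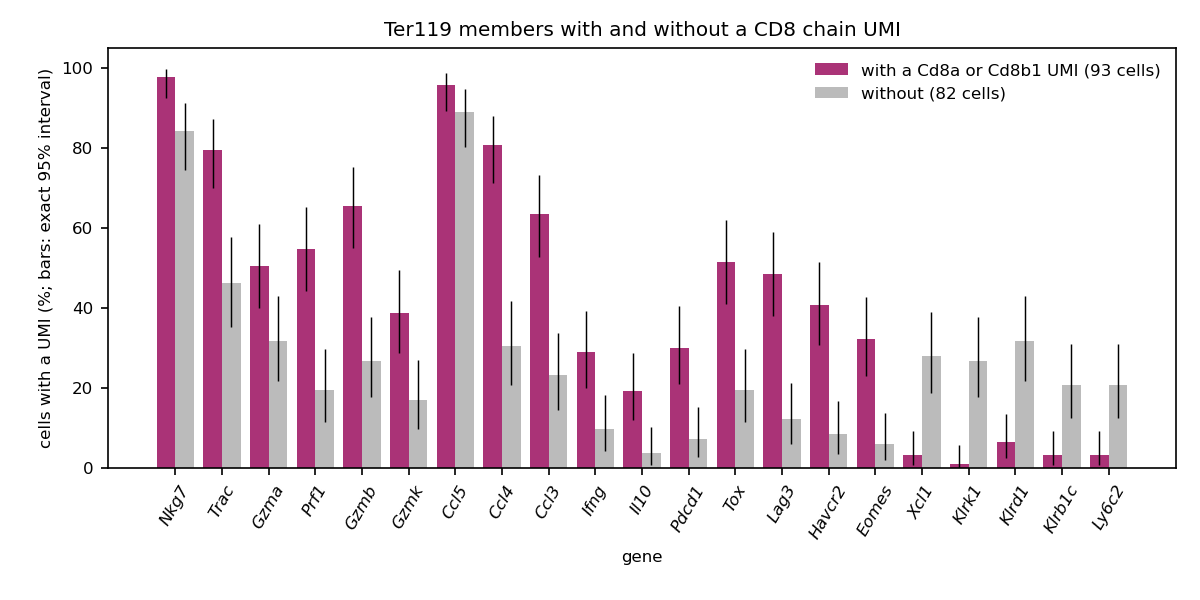
Percent of Ter119 members with a UMI of each of 21 genes, in the 93 cells with a Cd8a or Cd8b1 UMI (purple) and the 82 without (grey), with exact 95% intervals. Ccl3, Ccl4, Prf1, Pdcd1, Lag3 and Havcr2 are higher in the purple bars, and Xcl1, Klrk1, Klrd1, Klrb1c and Ly6c2 in the grey ones.

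Some of the largest ratios were shared with the other cells of the preparation. Hmox1, heme oxygenase, which breaks down heme, stood at 166 CPM in saline members and 2303 in Ter119 members, a ratio of 13.8 (10.2 to 19.2). In the other cells it stood at 886 and 5542 CPM. Fth1, the ferritin heavy chain that stores iron, stood at 3469 and 13991 CPM in members and at 5510 and 29021 CPM in the other cells. Gclm, of glutathione synthesis, stood at 31.0 and 206 CPM in members and 83.5 and 364 CPM in the other cells. Of 8 heme, iron and oxidative stress genes compared, 6 were higher and 0 lower (median 1.73), and 0 of the 8 were at least 2-fold above the other cells in either library. Hemoglobin transcripts took 1 UMI of the saline members and 10.6% of the UMIs of the Ter119 members, close to the 10.8% in the other Ter119 cells. Gapdh, of glycolysis, stood at 523 and 1374 CPM in members and 440 and 1341 CPM in the other cells, and 3 of 9 glycolysis genes were higher and 0 lower (median 0.75). Levels in members and in the other cells moved together for these genes, and the part of free RNA in the members' values was not tested.

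Over all genes compared, 6.8% were higher and 11.1% lower, and the next 3 lists stood near these shares. Of 17 interferon-stimulated genes compared, 1 was higher (Isg20, with a ratio of 1 after thinning to 1000 UMIs) and 3 lower, with a median of -0.43. Of 12 MHC class I genes, 0 were higher and 1 lower, with a median of -0.27. Of 11 proliferation genes, 2 were higher and 1 lower, with a median of 0.41 that turned to -0.22 in cells with Cd3e or Cd3d and to -1.13 in those without dendritic UMIs. Mki67, a marker of cycling cells, stood at 96.8 and 141 CPM, a ratio of 1.46 (0.897 to 2.44), with a UMI in 6 of 35 saline and 27 of 175 Ter119 members. Outside the lists, Ctla2a, a cysteine protease inhibitor gene of activated T cells, stood at 85.2 and 464 CPM, a ratio of 5.44 (3.49 to 8.89), and was detected in 93 of 175 Ter119 members. Samsn1, a signal adaptor of lymphocytes, stood at 85.2 and 245 CPM, a ratio of 2.88 (1.80 to 4.80). Socs1, a brake on cytokine signals, was 5.47-fold lower (108 and 19.8 CPM). Cxcl10, an interferon-induced chemokine, was 9.63-fold lower (287 and 29.8 CPM), with 74 UMIs in 5 saline members, and 2.36-fold lower without members that carried dendritic UMIs.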

How the data were processed

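The single-cell count matrices deposited by the authors hold whole UMI counts per gene and barcode, made with Cell Ranger 6.0.2 per the file headers. The build GRCm38.p6 and Cell Ranger 4.0.0 are named in the submitters' processing notes, beside Seurat 3.2.3 and Scanpy 1.7.0. How the hashtag reads were split between mice was not given in the sources used here. The libraries held 18354 (saline) and 25760 (Ter119) barcodes. Barcodes under 1000 UMIs, under 500 genes or over 15% mitochondrial UMIs were dropped, which left 11572 and 13846. Doublets were not called or removed here. Counts of 34 symbols on more than 1 gene identifier were summed.

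Member counts were summed per library and given as counts per 1000000 UMIs (CPM) outside the hemoglobin genes. With 1 mouse a group no test was run: a gene is called higher or lower past 2-fold, among genes at 50 CPM in 1 library and 10 UMIs over both. Shares have exact Clopper-Pearson and ratios exact conditional binomial 95% intervals. A gene with 0 UMIs in 1 library is set against a floor of 3 counts over the group. Named genes are a core set, up to 3 per list by size of ratio and the 10 highest and 10 lowest outside the lists; Ccl4, Tox and Lag3 were added after their values were seen. Members and lists were chosen with earlier results of these data known. The Cd3e or Cd3d split, the CD8 split, and the exclusions by dendritic UMIs, by Kupffer marker share and of the highest saline cell were chosen after seeing the data. Gene positions are from GENCODE on GRCm38 (100 of 101 named genes matched) and promoters from RefSeq (70 of 101). The scripts were tested on simulated data. Alternatives were other cell filters, rule thresholds, exclusions of mixed cells, scalings (TMM factors from edgeR 4.0.16) and filters on low counts. Work was done in python 3.11.15 with numpy 2.4.6, scipy 1.17.1, pandas 2.3.3 and matplotlib 3.10.9, and in R 4.3.3.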

Additional observations from a re-analysis of the deposited data

Results flagged for a closer look

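Hemoglobin transcripts, left out of every level above, took 10.6% of all UMIs of the Ter119 members and 0.000387% (1 UMI) of those of the saline members. The median Ter119 member held 1.08% hemoglobin and the highest 62.4%, and 7 of 175 members were over 50%.

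Among barcodes that failed the cell filters, 30 of 11914 in Ter119 met the member rule (0.252%, 0.170 to 0.359), against 2 of 6782 in saline (0.0295%, 0.00357 to 0.106). Of the 30, 24 were under 1000 UMIs and 6 were over 15% mitochondrial, 14 carried a CD8 chain UMI and 1 carried Ncr1.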

How the results depend on the processing

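No paired analysis was possible because each group has 1 sample, and for the same reason no replicate could be left out. The saline share of members was 0.721% and the Ter119 share 1.89% with at most 5% mitochondrial UMIs. The Ter119 share was 0.967% with at least 2000 UMIs, 1.01% with cells thinned to 1000 UMIs and 0.932% without members rich in Kupffer markers. Leaving out members with 3 or more UMIs of other cell types left 1 saline and 22 Ter119 cells, with shares of 0.00864% and 0.159%, a Cd3 chain UMI in 100% of both, and 54 genes higher and 94 lower of 742 compared, so this setting gives no usable comparison. Higher genes numbered 407 in cells with Cd3e or Cd3d (203 of the 270 were shared), 436 in those without dendritic UMIs, 520 after thinning, 407 with median-of-ratios factors, 587 at 20 CPM and 915 with no filter. Lower genes numbered 281 with TMM factors, 276 with median-of-ratios factors, 888 at 20 CPM and 1394 with no filter. Of 78 named genes past 2-fold, 38 kept their sign and 22 stayed past 2-fold in every setting with a value, and 12 reversed. There were 17 settings (12 planned, 5 added after seeing the data). A bound that crossed 1 entered as a ratio of 1 and was counted as a lost sign. This befell many named genes in the setting that left 1 saline cell, among them Gzmk, Il10, Ifng, Cd8b1, Havcr2 and Xcl1. In cells with Cd3e or Cd3d the log2 ratio was 0.34 for Tbx21 (0.47 on the CD3 side), 0.14 for Gzmb and -1.08 for Birc5. In those without dendritic UMIs it was 0.66 for Klrk1, 2.06 for Itgam, 0.48 for Il18rap, -1.85 for Birc5, 1.61 for Tnip3 and 2.61 for Il1b. Over all members without dendritic UMIs it was 2.44 for Tnip3 and 0.70 for Il1b. After thinning it was -0.024 for Cd2, -0.62 for Cd28, 0.31 for Igtp, -0.27 for Ube2c and 0.54 for Tnip3. Without members holding UMIs of other cell types it was -0.51 for Cd2 and -1.02 for Cd28. Leaving out the saline member with the most UMIs of a gene, a check added after seeing the data and not among the 17 settings, gave 0.34 for Klra8 and 2.52 for Hist1h2ap, and in cells with Cd3e or Cd3d 0.68 for Klrb1c, 0.84 for Tbx21, 1.12 for Gzmb, 0.25 for Xcl1 and 2.46 for Hist1h2ap. The cause of the other reversals was not tested. With 35 saline members, a gene at 0 UMIs in saline may still be present below the floor of 3 counts.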
